A study of Mus musculus with 21 samples.

Results

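The T cell receptor gene segments comprised 52 of the 11736 genes in the deposited table, chosen as every gene whose deposited biotype begins with TR_. They were 27 variable (V), 2 diversity (D), 16 joining (J) and 7 constant (C) segments, with 1 J pseudogene, Trbj2-6, among the joining segments. By locus, 6 lay in alpha (TRA), 32 in beta (TRB), 9 in gamma (TRG) and 5 in delta (TRD), of the 270 segments that GENCODE mouse release M21 annotates. RNA was measured in 15 libraries of mouse natural killer (NK) cells sorted from spleen and kept with human interleukin 15 at 50 ng/ml. The controls, called Cre only, carried Cre without a named deletion (4 libraries, S16 to S19). The Ikzf1 KO cells had the gene of Ikaros deleted (4 libraries, S12 to S15), the Ikzf3 KO cells had that of Aiolos deleted (4 libraries, S1 to S4), and the Ikzf1/Ikzf3 DKO cells had the genes of both these zinc finger transcription factors deleted (3 libraries, S5 to S7). The labels do not give the Cre driver, the alleles or the age of the mice, and whether the other groups carry Cre is not given in the sources used here. The samples taken directly after sorting, 3 Cre only and 3 Ikzf1 KO, have no column and were not analysed here.

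A T cell receptor gene is assembled in developing T cells by recombination of V, D and J segments at the beta and delta loci and of V and J segments at the alpha and gamma loci, after which splicing joins the variable exon to a constant segment. Unrearranged segments can also be transcribed from their own promoters, as germline RNA, in lymphocytes that make no receptor protein, and NK cells are defined in part by the lack of a rearranged receptor. RNA counts per segment do not separate rearranged from germline transcripts, and this separation was not tested here.

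The 5 joining segments of beta and delta that were called in DKO are shown first: 3 of the Trbj1 cluster and Trdj1, which fell, and Trbj2-6, which rose. Each is given 5′ to 3′ from the GENCODE M21 transcripts, with the letters TTNGGNNNNGG, which span the phenylalanine-glycine-X-glycine codons of a J segment, in capitals where they occur on the coding strand. This pattern was present in 10 of the 16 joining segments and in 73.8% of the 80 joining segments annotated. Trbj2-6, the pseudogene, does not hold it. Trbj1-1 lies at chr6:41533864-41533911, Trbj1-2 at chr6:41534001-41534048, Trbj1-5 at chr6:41535084-41535133, Trbj2-6 at chr6:41543598-41543645 and Trdj1 at chr14:54123138-54123188, all on the plus strand of mm10.
Trbj1-1: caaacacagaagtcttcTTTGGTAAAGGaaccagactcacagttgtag
Trbj1-2: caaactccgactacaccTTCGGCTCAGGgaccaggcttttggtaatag
Trbj1-5: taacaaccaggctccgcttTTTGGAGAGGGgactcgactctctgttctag
Trbj2-6: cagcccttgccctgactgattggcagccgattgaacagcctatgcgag
Trdj1: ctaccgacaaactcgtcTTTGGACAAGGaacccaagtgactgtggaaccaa

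The constant segments of the beta locus are shown because the results below tell them apart, which the sequence allows only in part. The first 259 bases of the Trbc1 and Trbc2 transcripts are identical. Of the 75-base windows, the length of a read, 34.6% of those in Trbc1 also occur in Trbc2 and 37.7% of those in Trbc2 also occur in Trbc1. The stretch from base 382 to base 461 holds 12 of the differences, in capitals. Trbc1 lies at chr6:41538218-41539881 and Trbc2 at chr6:41546730-41548352, both on the plus strand.
Trbc1: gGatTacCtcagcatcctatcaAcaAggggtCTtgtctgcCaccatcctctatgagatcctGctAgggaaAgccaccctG
Trbc2: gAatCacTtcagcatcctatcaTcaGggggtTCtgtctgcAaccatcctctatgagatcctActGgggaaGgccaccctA

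Recovered depth was 8.61 to 21.2 megareads per library, and all 52 members came out as whole reads within 0.02 read in every library. The targeted genes bore out the labels in every library: Ikzf1 was at 57.7 to 69.4 RPKM (reads per kilobase of gene and megareads) in Cre only, 18.3 to 19.9 in Ikzf1 KO and 25.3 to 38.4 in DKO, and Ikzf3 was at 37.7 to 45.0 in Cre only, 15.2 to 20.2 in Ikzf3 KO and 20.0 to 23.7 in DKO. Libraries of 1 group did not all resemble each other. In Cre only, S16 and S17 held 106 and 119 reads of TRB variable segments against 18 and 14 in S18 and S19, and Cd3e, a chain of the receptor complex, was at 3.10 and 2.50 against 0.24 and 0.24 RPKM. In Ikzf3 KO, S1 and S2 likewise differed from S3 and S4, for example in Trdj1. The table also favours segments high in some group: no gene with a known length has a value in its highest 3 libraries below 0.646 RPM (reads per megareads, RPKM times length in kilobases), and 22 of the 52 members reach that level only through the 3 DKO libraries.

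In DKO cells 38 of the 52 segments differed from Cre only, 33 higher and 5 lower, where 18.7% of the 10032 genes tested were called (limma on log2(RPKM + 0.5), p below 0.05 after Benjamini-Hochberg adjustment). Of these genes 8.06% were called higher and 10.6% lower. The median log2 fold change was 2.85 over the members, or 2.91 with Trav16n, which has no control read, at its bound, against a median of -0.00077 over all genes. All 52 passed the filter of 1 RPKM in 3 libraries, but 11 variable segments, 3 of TRA and 8 of TRB, passed it only through DKO and so had to differ. Of the other 41 segments, 22 were called higher and 5 lower. By locus, 2 of 3 TRA segments, 11 of 24 TRB segments and all 9 TRG segments among these 41 rose, and 3 TRB segments fell. Of the 5 TRD segments none rose and 2 fell. Among the 30 segments that reach the lowest level of the table outside DKO, 11 were called higher and 5 lower. Of these 30, 1 of 2 TRA segments, 4 of 17 TRB segments and all 6 TRG segments rose, and 3 TRB segments fell. The medians of 2.85 and 2.91 include the segments admitted through their DKO values.

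**Figure D1:**
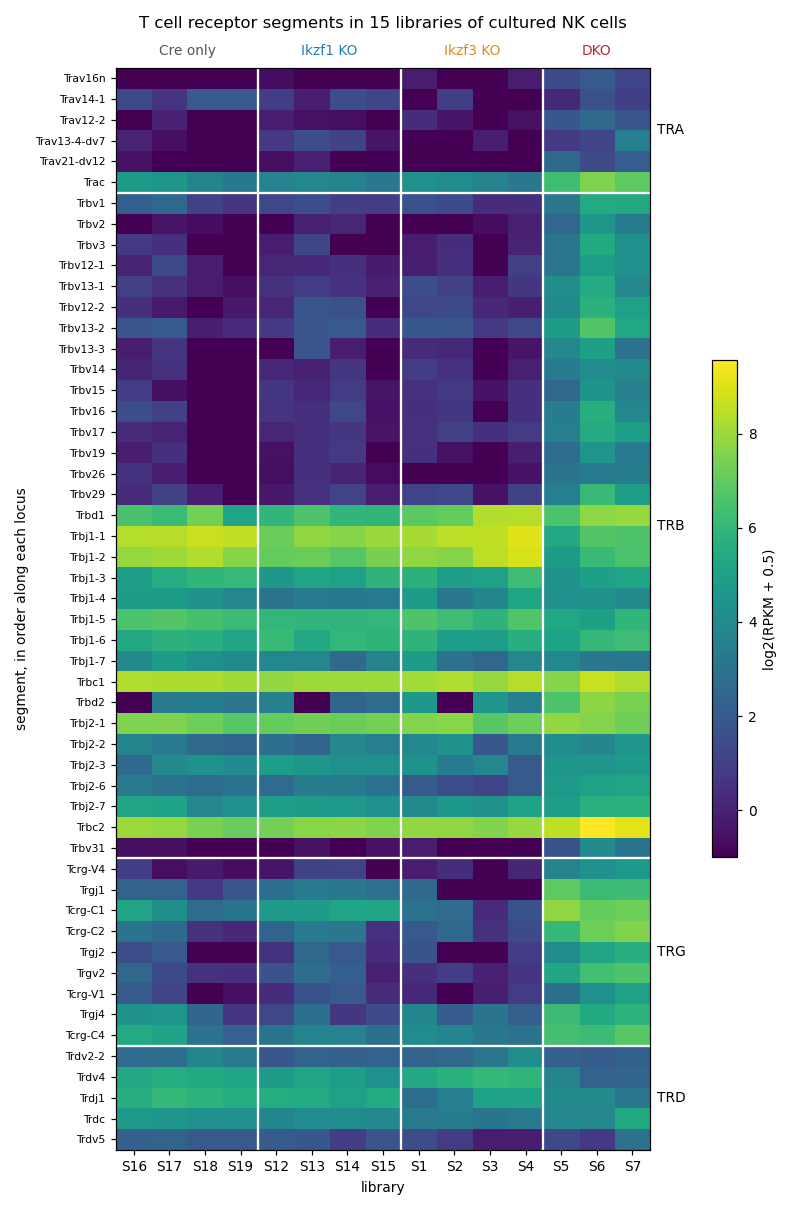
Each row is a segment, in order along its locus, each column a library, and the colour is log2(RPKM + 0.5). The variable segments of TRB are dark in the 12 libraries outside DKO and bright in S5 to S7, while Trbj1-1 and Trbj1-2 are dimmest in those 3 libraries.

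Summed over its segments, each locus can be given in RPM, as a description with no test. TRA held 25.6, 22.5, 13.7 and 9.79 in the Cre only libraries and 76.9, 179 and 122 in DKO. TRG held 88.5, 59.8, 14.7 and 13.3 in Cre only and 393, 399 and 506 in DKO. Neither locus overlapped between these groups. TRB held 472, 453, 411 and 338 in Cre only and 509, 1111 and 788 in DKO, again without overlap. TRD held 120, 118, 103 and 99.1 in Cre only and 64.2, 60.4 and 172 in DKO, so that S5 and S6 lay below every control and S7 above. These sums weight each read alike. Summing RPKM instead, which weights short segments, moved the log2 ratio of DKO to Cre only from 0.94 to 0.40 for TRB and from -0.16 to -1.32 for TRD. As a share of all T cell receptor reads, TRB took 71.4% ± 4.06 (SD, n = 4) in Cre only and 54.0% ± 8.27 (n = 3) in DKO, and TRG took 6.82% ± 4.84 and 30.8% ± 7.50. In bulk RNA, more cells of a type and more RNA per cell cannot be told apart.

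**Figure D2:**
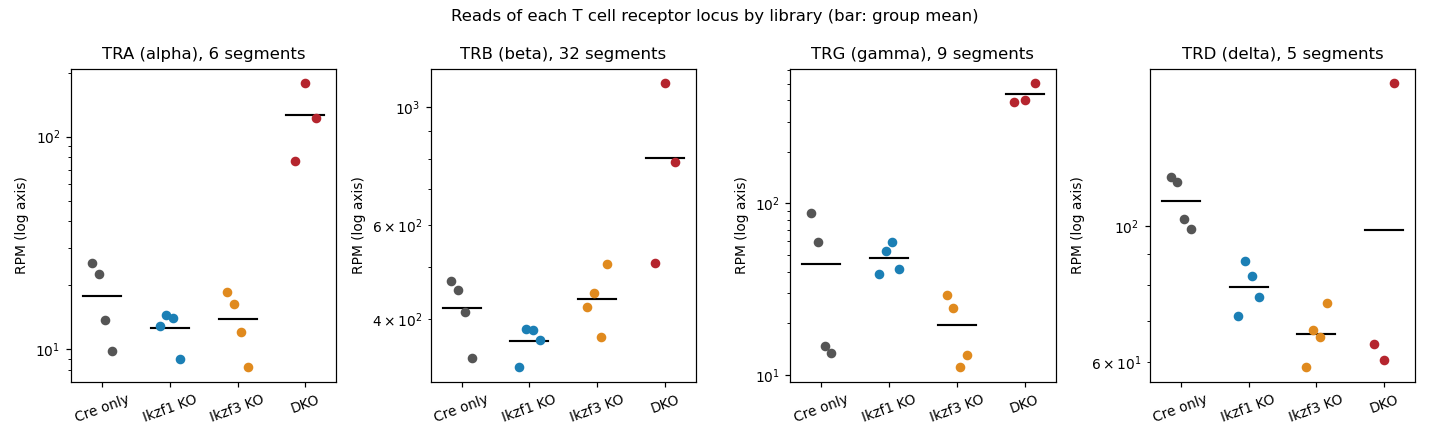
Points are libraries, bars are group means, and the log axis gives RPM summed over the segments of each locus. The 3 DKO libraries lie above all others for TRA and TRG, and a lone DKO library, S7 at 172, lies above the others for TRD.

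The constant segments encode the part of each chain that spans the membrane. Trac, the only constant segment of alpha, stood at 26.2, 23.3, 13.3 and 9.03 RPKM in Cre only and at 76.8, 185 and 121 in DKO. The groups did not overlap, and the log2 fold change was 2.82 (SE 0.37, limma adjusted p = 0.000114). Trbc2 went from 260, 234, 174 and 136 RPKM to 380, 756 and 561, a log2 fold change of 1.48 ± 0.24 (limma adjusted p = 0.000631), again without overlap. Its neighbour Trbc1 was at 311, 303, 306 and 263 RPKM in Cre only and at 202, 410 and 315 in DKO. The Trbc1 groups overlapped, with a log2 fold change of 0.01 and a 95% confidence interval of -0.41 to 0.43 (limma adjusted p = 0.988). The reads of Trbc1 over those of Trbc2 were therefore 1.30 to 2.10 in the Cre only libraries and 0.58 to 0.61 in DKO.

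The gamma constant segments, which lie in separate V-J-C clusters, all rose. Tcrg-C1 was at 35.7, 18.8, 6.19 and 8.08 RPKM in Cre only and at 225, 134 and 149 in DKO (log2 fold change 3.55 ± 0.61; limma adjusted p = 0.000996). Tcrg-C2 was at 7.87, 5.65, 0.97 and 0.67 RPKM in Cre only and at 65.7, 149 and 191 in DKO, and its log2 fold change of 5.33 ± 0.77 was the largest of the 52 in this comparison (limma adjusted p = 0.000256). Tcrg-C4 was at 42.9, 34.2, 7.24 and 4.53 RPKM against 87.1, 75.9 and 113 (2.55 ± 0.60; limma adjusted p = 0.00921). In each of the 3 the control libraries S16 and S17 lay above S18 and S19, yet below every DKO library. Tcrg-C1 and Tcrg-C2 share 17.6% and 9.17% of their 75-base windows with other gamma constant segments, while Tcrg-C4 shares none. Trdc, the constant segment of delta, was at 24.7, 23.2, 19.2 and 19.5 RPKM in Cre only and at 14.3, 14.4 and 42.5 in DKO, and was not called (log2 fold change -0.06 ± 0.28; limma adjusted p = 0.915). Without S7 it was called lower, at -0.57 with a limma adjusted p of 0.025.

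The variable segments of beta supply the antigen-contacting part of the chain, and 16 have a row. Of these, 8 passed the filter without the DKO libraries, and all 8 rose in DKO cells, with fitted log2 fold changes of 3.08 to 5.21. Only 3 of the 8, Trbv1, Trbv12-2 and Trbv13-2, also reach the lowest level of the table outside DKO. The other 8 of the 16, Trbv3 and Trbv31 among them, passed the filter only through DKO, so that their fold changes of 3.70 to 4.48 are a description. Trbv31 lies beyond Trbc2 in the opposite orientation. None of the 16 shares a 75-base window with another gene. Trbv12-2 was at 0.90, 0.35, 0 and 0.32 RPKM in Cre only and at 15.7, 53.8 and 32.9 in DKO (log2 fold change 5.21 ± 0.64; limma adjusted p = 6.13e-05). Trbv17 was at 0.74, 0.55, 0 and 0 RPKM against 11.3, 45.0 and 30.7 (5.08 ± 0.44; limma adjusted p = 2.62e-06). Trbv13-2, the variable segment with most reads in S5 and S6, was at 3.05, 3.60, 0.44 and 0.72 RPKM against 27.4, 102 and 40.3 (4.60 ± 0.58; limma adjusted p = 7.48e-05). Trbv29 rose by 4.80 ± 0.61 on the same log2 scale. Trbv3, admitted by its DKO values, had a fold change of 4.48 ± 0.63. No control library reached a DKO library for any of the 16, which the filter fixed in part. Controls differed among themselves: S18 and S19 had no read of 10 and 12 of the 16 segments, S16 and S17 of 1 and 0.

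Together the TRB variable segments held 7.33, 8.09, 1.34 and 0.86 RPM in Cre only and 65.9, 243 and 124 in DKO. Their share of TRB reads was 0.98% ± 0.80 (SD, n = 4) and 16.9% ± 4.57 (n = 3). Only 3 of the 16 reach the lowest level of the table outside DKO. The rise of this share, and the presence of reads in the DKO libraries, were thus fixed in part. In DKO the reads were spread over the 16 segments in the table. Each of the 16 had at least 3 reads in every DKO library, and the leading segment took 14.2% of the TRB variable reads in S5, 14.3% in S6 and 14.1% in S7. The controls had 14 to 119 such reads per library, of which the leading segment, Trbv1, took 22.6% to 50%. In Ikzf1 KO the leading segment took 14.0% to 34.2%, from 38 to 110 reads per library. In Ikzf3 KO it took 13.3% to 23.8%, from 21 to 85 reads. A leading share near 14% was thus not particular to DKO, and outside DKO it rests on few reads.

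The D and J segments of beta, which supply the junction, did not move as a group. They are 12 to 54 bases long, shorter than a 75-base read, so their RPKM is inflated by length and how reads reaching into a neighbour were counted is not given in the sources used here. In the Trbj1 cluster, upstream of Trbc1, 3 of 7 segments fell in DKO and none rose. Trbj1-1 was at 339, 345, 422 and 373 RPKM in Cre only and at 40.6, 105 and 99.6 in DKO (log2 fold change -2.28 ± 0.29; limma adjusted p = 9.29e-05). Trbj1-2 was at 235, 263, 328 and 199 RPKM against 26.6, 70.5 and 94.2 (-2.16 ± 0.38; limma adjusted p = 0.00128). Trbj1-5 was at 95.4, 105, 89.1 and 72.2 RPKM against 40.3, 31.4 and 62.0 (-1.06 ± 0.23; limma adjusted p = 0.00496). All DKO libraries lay below all controls for these 3, and the call on Trbj1-5 was lost without S16 and S17, at a limma adjusted p of 0.0586.

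In the Trbj2 cluster, upstream of Trbc2, 1 of 5 segments rose and none fell. That segment was the pseudogene Trbj2-6, at 10.1, 7.08, 6.19 and 7.65 RPKM in Cre only and at 25.2, 32.7 and 35.0 in DKO (log2 fold change 1.94 ± 0.24; limma adjusted p = 7.40e-05). It rests on 4 to 7 reads per control library and 18 to 32 per DKO library. Trbd2, the diversity segment before this cluster, was at 0, 9.71, 10.6 and 8.74 RPKM against 95.9, 210 and 171, from at most 2 reads per control library and 20 to 60 per DKO library. Its log2 fold change of 4.98 ± 1.41 (limma adjusted p = 0.0243) was not called under 5 alternatives, among them the fits without S16, S6 or S7, and it is a value set by few reads. Both Trbj2-6 and Trbd2 reach the lowest level of the table only through DKO. Trbd1, before the Trbj1 cluster, was not called.

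Summed, the Trbj1 segments held 38.1, 42.5, 48.3 and 38.0 RPM in Cre only and 9.87, 16.5 and 19.6 in DKO, whereas the Trbj2 segments held 12.2, 12.4, 9.88 and 7.71 against 16.2, 15.4 and 14.3. The ratio of Trbj1 to Trbj2 reads was 3.11 to 4.94 in the controls and 0.61 to 1.37 in DKO, with no overlap. In Ikzf1 KO this ratio was 2.23 to 2.80 and the Trbj1 sum 22.7 to 30.5 RPM, both also below every control. In Ikzf3 KO the ratio was 2.69 to 6.34, overlapping the controls. Both clusters thus differ from the TRB variable segments, whose DKO mean in RPM was 32.8 times that of Cre only. Part of that contrast was fixed by how segments entered the table. It holds 12 of the 14 annotated TRB joining segments but 16 of the 35 variable ones. Only 3 of these 16 reach its lowest level outside DKO.

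**Figure D3:**
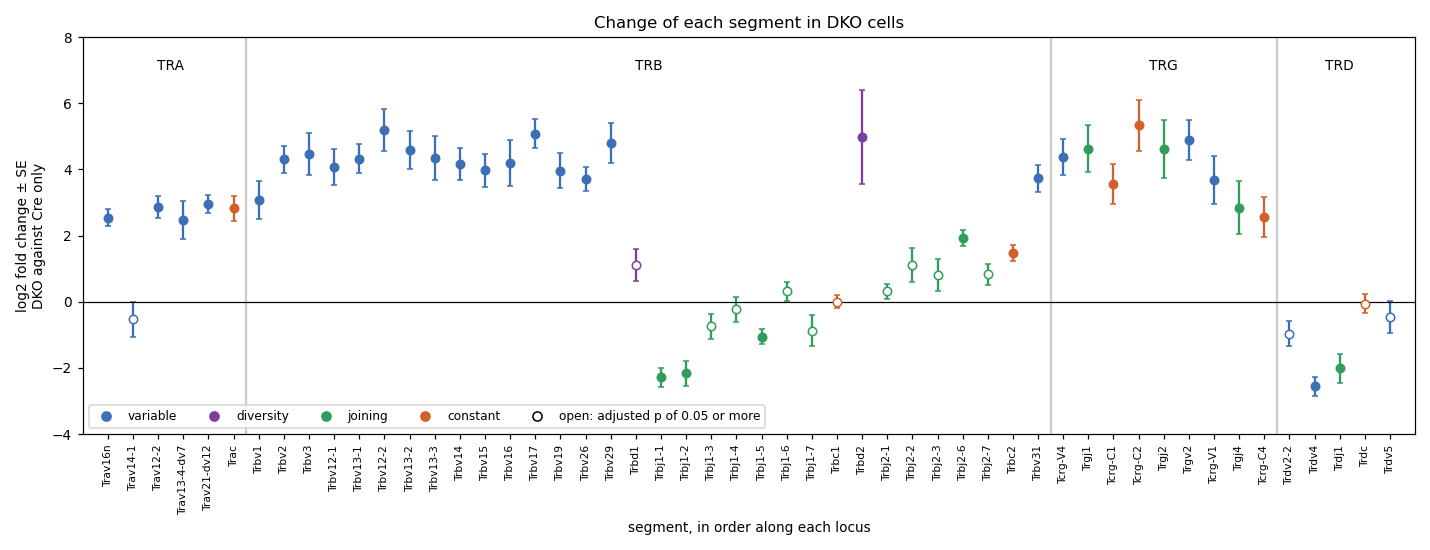
Points give the log2 fold change in DKO against Cre only on the log2(RPKM + 0.5) scale, bars the SE, and filled points an adjusted p below 0.05. TRB variable segments lie between 3.08 and 5.21, Trbj1-1 and Trbj1-2 near -2, and no TRD segment is both filled and above 0.

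The 3 V and 3 J segments of gamma in the table, of 7 and 4 annotated, all rose in DKO. Trgv2 was at 5.07, 2.08, 0.91 and 0.87 RPKM in Cre only and at 37.7, 81.7 and 99.6 in DKO (log2 fold change 4.89 ± 0.60; limma adjusted p = 6.70e-05). It took 67.9% to 72.2% of the gamma variable reads in the DKO libraries and 56.2% to 77.8% in Cre only. Tcrg-V4 was at 1.46, 0.16, 0.35 and 0.14 RPKM against 12.8, 19.6 and 25.6 (4.38 ± 0.53; limma adjusted p = 5.71e-05). Of the joining segments, Trgj1 was at 4.61, 4.53, 1.24 and 3.06 RPKM against 122, 72.8 and 75.3 (4.63 ± 0.70; limma adjusted p = 0.000369), and Trgj2 was at 2.31, 3.40, 0 and 0 against 16.8, 35.2 and 50.6 (4.62 ± 0.87; limma adjusted p = 0.00207). No control library reached a DKO library for these 4. Of the 4, only Trgv2 reaches the lowest level of the table outside DKO, so for the others this was fixed in part. Within DKO, Tcrg-C1 and Trgj1 were highest in S5, where Trgv2, Tcrg-C2 and Trgj2 were lowest.

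The alpha locus was represented by Trac and 5 of its 128 annotated variable segments, and none of its joining segments is in the table. Trav16n, Trav12-2 and Trav21-dv12 passed the filter only through DKO, so they had to be higher there. Of the other 2, Trav13-4-dv7 was called higher, though it reaches the lowest level of the table only through DKO. Trav13-4-dv7, a segment usable by alpha and delta chains, was at 0.54, 0.18, 0 and 0 RPKM in Cre only and at 1.22, 1.78 and 11.4 in DKO (log2 fold change 2.48 ± 0.58; limma adjusted p = 0.00883). Its high DKO value came from S7, and 46.9% of its 75-base windows occur in other alpha variable segments. The call was lost without S18 and S19, at a limma adjusted p of 0.0789. Trav14-1 was at 2.08, 1.02, 3.35 and 3.37 RPKM against 0.67, 2.58 and 1.46, overlapping and not called. Trav16n had no read in the 4 Cre only libraries. Against the level of 3 reads over that group, its DKO mean of 2.51 RPKM was at least 20.5-fold higher.

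The delta locus, nested within alpha, went a different way. Trdv4 was at 40.8, 46.2, 42.0 and 36.2 RPKM in Cre only and at 12.5, 4.53 and 4.94 in DKO (log2 fold change -2.55 ± 0.29; limma adjusted p = 3.10e-05). Trdj1 was at 48.8, 65.3, 56.8 and 45.6 RPKM against 15.8, 15.4 and 8.86 (-2.01 ± 0.44; limma adjusted p = 0.00616). The groups did not overlap for either segment. Trdv5 was at 4.26, 4.81, 3.39 and 3.35 RPKM against 1.99, 1.23 and 7.08, high in S7 as Trdc was. Trdv5 overlaps Trdc on the opposite strand. The library kit keeps strand, but whether reads were counted by strand is not given in the sources used here. Trdv2-2 was at 5.92, 6.50, 14.0 and 9.40 RPKM against 4.23, 3.71 and 4.39, all below the controls, but missed the threshold (-0.96 ± 0.37; limma adjusted p = 0.0878).

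**Figure D4:**
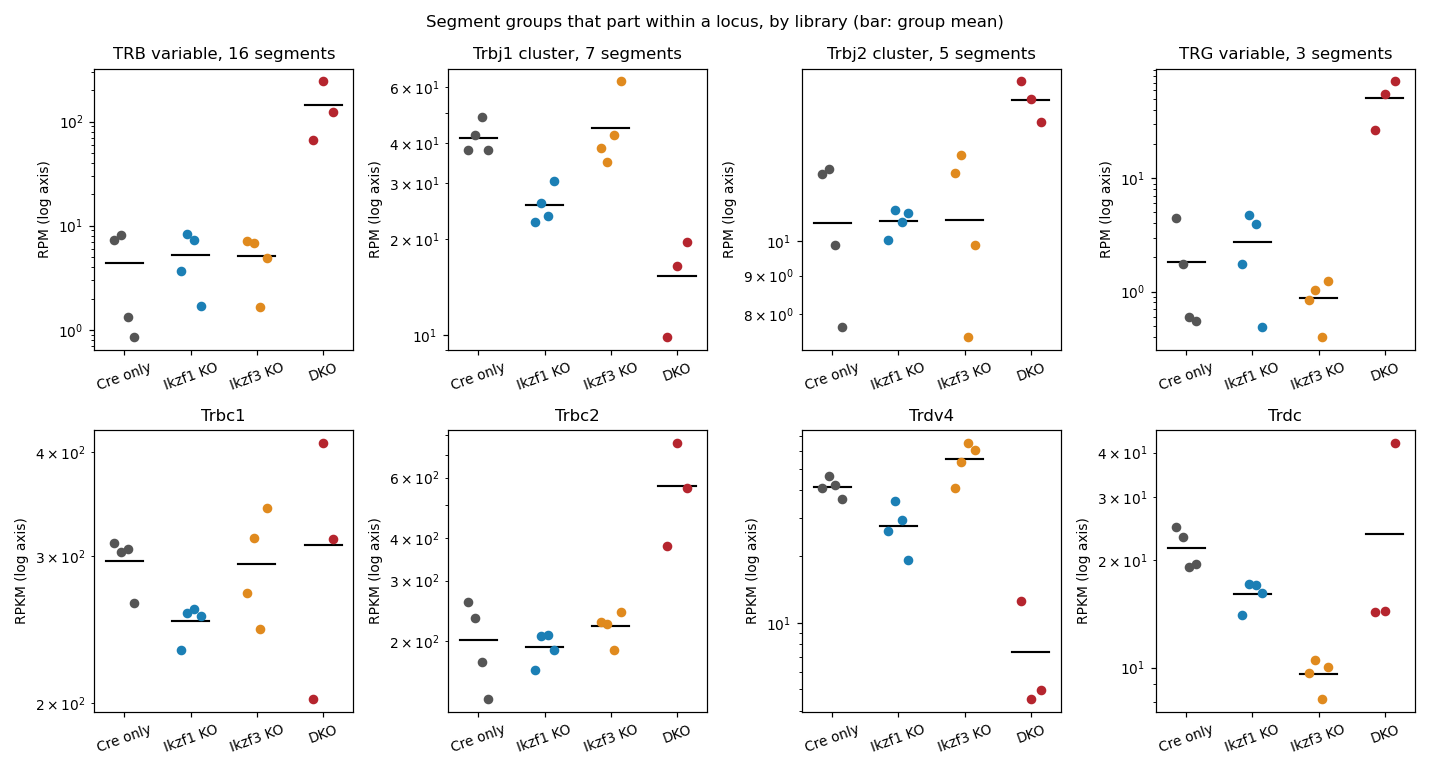
Points are libraries and bars group means, on log axes, in RPM for summed groups (upper row) and RPKM for Trbc1, Trbc2, Trdv4 and Trdc (lower row). The DKO libraries lie above the others for TRB and TRG variable segments and Trbc2 and below them for the Trbj1 cluster and Trdv4, while for Trbc1 and Trdc the groups overlap.

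With Ikzf1 alone deleted, 0 of the 52 segments were called in limma, where 6.32% of all genes were called (3.54% higher, 2.78% lower), and 7 segments had an unadjusted p below 0.05. In the alternative fits 0 to 13 were called. Of the segments, 9 lay below all Cre only libraries and 1 above, against 13.2% and 11.6% of all genes. The 9 were Trbj1-1, Trbj1-2, Trbj1-4, Trbj1-5, Trbj1-7, Trbc1, Trdv2-2, Trdv4 and Trdc. Trbj1-1 was at 148, 225, 200 and 252 RPKM, between the controls and DKO (log2 fold change -0.86 ± 0.27; limma adjusted p = 0.0773). Trbj1-4 came nearest to the threshold, at 7.78, 9.71, 9.20 and 9.59 RPKM against 27.1, 26.7, 20.4 and 14.4 in Cre only (-1.20; limma adjusted p = 0.0511). Variable segments of beta, none of them called, had a sum of 3.68, 8.25, 7.37 and 1.69 RPM. Trgj1 was the segment above all controls, at 6.61, 9.63, 8.93 and 7.41 RPKM (limma adjusted p = 0.307).

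With Ikzf3 alone deleted, 6 of the 52 segments (11.5%) were called lower and none higher. Of all genes 7.88% were called lower and 6.30% higher, 14.2% in either direction. The count is thus near the share of all genes. Of the 6, 3 were in delta, among them Trdc and Trdv5, which overlap on opposite strands. Trdc was at 9.69, 10.5, 8.18 and 10.1 RPKM, below every control library (log2 fold change -1.13 ± 0.26; limma adjusted p = 0.0126). Trdj1 was at 6.60, 11.2, 34.3 and 33.9 RPKM, also without overlap but split between the library pairs S1, S2 and S3, S4 (-1.61 ± 0.41; limma adjusted p = 0.0205). The Trdj1 value was -2.57 without S3 and S4, and its call was lost without S16 and S17 (limma adjusted p = 0.109) and without S18 and S19 (limma adjusted p = 0.0849). Trdv5 was at 2.31, 1.30, 0.36 and 0.38 RPKM, split the other way (-1.66 ± 0.45; limma adjusted p = 0.0258). Without S3 and S4 the Trdv5 value was -0.97 and not called (limma adjusted p = 0.208), and its call was also lost without either pair of controls. The call on Trdc was lost without S3 and S4 (limma adjusted p = 0.0631) and without S16 and S17 (limma adjusted p = 0.105). The remaining delta segments were not called, and Trdv4 was at 40.8, 53.6, 65.1 and 60.5 RPKM. Trdv4 thus took 30.8% to 44.0% of TRD reads in Ikzf3 KO, 15.1% to 18.2% in Cre only and 1.28% to 8.68% in DKO.

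The others lowered in Ikzf3 KO were Trbj2-6, Tcrg-C1 and Trav14-1. Trbj2-6 was at 3.51, 2.37, 1.66 and 3.43 RPKM, from 1 or 2 reads per library (-1.37 ± 0.23; limma adjusted p = 0.00176). Tcrg-C1 was at 7.47, 5.92, 0.69 and 2.68 RPKM and overlapped the controls S18 and S19 (-1.92 ± 0.56; limma adjusted p = 0.0359). The Tcrg-C1 value was -0.98 without S3 and S4 and -1.02 without S16 and S17, not called in either, and -2.82 without S18 and S19. Trav14-1 was at 0, 1.43, 0 and 0 RPKM (-1.98 ± 0.49; limma adjusted p = 0.0172), and its call was lost without S3 and S4 and without S18 and S19. Trbj2-6 was the only 1 of the 6 called under every alternative. Without S3 and S4 there were 2 calls, and without S16 and S17 there were 3.

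Set against the single deletions, which are separate groups, DKO cells differed in 35 segments from Ikzf1 KO (32 higher, 3 lower) and in 38 from Ikzf3 KO (34 higher, 4 lower). Both counts include the 11 variable segments that passed the filter only through DKO. Of the other 41, 21 were higher and 3 lower against Ikzf1 KO, and 23 higher and 4 lower against Ikzf3 KO. Among the 30 that reach the lowest level of the table outside DKO, 11 were higher and 3 lower against Ikzf1 KO. Against Ikzf3 KO 12 of these 30 were higher and 4 lower. Of all genes, 7.48% were called against Ikzf1 KO, 3.76% higher and 3.72% lower, and 20.1% against Ikzf3 KO, 10.2% higher and 9.85% lower. These comparisons share the DKO libraries with each other and with the comparison with Cre only. Trac rose by 3.27 ± 0.37 against Ikzf1 KO and by 3.08 ± 0.37 against Ikzf3 KO on the log2 scale, and Trbv12-2 by 4.30 ± 0.64 and 4.27 ± 0.64. Tcrg-C1 rose by 2.39 ± 0.61 against Ikzf1 KO and by 5.47 ± 0.61 against Ikzf3 KO. Trdv4 fell by 1.95 and by 2.95, and Trbj1-1 by 1.42 and by 2.33. Trdj1 fell by 1.64 against Ikzf1 KO (limma adjusted p = 0.0372), while against Ikzf3 KO its log2 fold change was -0.40 (limma adjusted p = 0.532).

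The departure of DKO from the sum of the effects of the single deletions, on the log2 scale, was called for 32 of the 52 segments, 30 above the sum and 2 below, where 6.55% of all genes were called, 3.63% above and 2.92% below. Without the 11 segments that passed the filter only through DKO, 19 of 41 lay above it and 2 below. Of the 30 that reach the lowest level of the table outside DKO, 11 lay above it and 2 below. Among the 41 were 8 TRB variable segments, all above the sum, with Trbv13-2 at 3.99 ± 0.79 (limma adjusted p = 0.00805). Of these 8, 3 were called under every alternative. Trac departed by 3.52 ± 0.51, Tcrg-C1 by 4.31 ± 0.82 and Trbc2 by 1.33 ± 0.32. Trdv4 and Trbj1-1 were the segments below the sum, at -2.34 ± 0.40 and -1.47 ± 0.40. The count depended on the controls and on low values: it was 21 without S16 and S17, 19 without S6 and 21 with a pseudocount of 0.1.

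Genes whose products carry or read the receptor were compared from lists fixed for the purpose. Of the 38 listed genes for CD3 chains and receptor signalling, 33 were tested, of which 5 rose and 7 fell in DKO (8.06% of all genes called higher, 10.6% lower), with a median log2 fold change of -0.26. Cd3e, a CD3 chain, was at 3.10, 2.50, 0.24 and 0.24 RPKM in Cre only and at 24.8, 42.4 and 44.8 in DKO (4.55 ± 0.57). Cd3d, its partner, was at 20.4, 23.9, 6.75 and 2.97 RPKM against 63.8, 177 and 164 (3.54 ± 0.62). The adaptor Lat rose by 1.22 ± 0.25, and Cd3g was not called at 0.76 ± 0.58. Tyrobp, an adaptor of NK receptors, fell by 2.07, and the kinase Fyn by 0.72. In Ikzf3 KO 1 of the 33, Cd28, rose and 9 fell, among them Pag1 by 1.78 and Plcg1 by 1.06, where 6.30% of all genes were called higher and 7.88% lower. In Ikzf1 KO none rose and 4 fell, among them Cd247 by 1.06 and Ubash3a by 1.09, where 3.54% of all genes were called higher and 2.78% lower.

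Of the 28 listed factors of T lineage and receptor locus transcription, 23 were tested, of which 4 rose (17.4%) and 5 fell (21.7%) in DKO, where 8.06% of all genes were called higher and 10.6% lower. Ikzf2, a factor of the Ikaros family, rose by 3.40 ± 0.40, Sox4 by 2.72 ± 0.32 and Tcf7 by 1.82 ± 0.39. The 5 that fell include the deleted genes, Ikzf1 by 1.04 and Ikzf3 by 0.94, whose fall was fixed by the design. The others were Gfi1, Notch1 and Ets1, so the 21.7% overstates the share for the rest of the list. Bcl11b and Tox fell in Ikzf3 KO, by 1.61 and 1.69, and Myb rose there by 1.39 ± 0.32. In Ikzf1 KO 1 of the 23, Sox4, rose, by 1.41 ± 0.29, and 1, the deleted Ikzf1, fell. Of all genes 3.54% were called higher and 2.78% lower in Ikzf1 KO. Of the 18 listed genes of V(D)J recombination and repair, 12 were tested. Hmgb2 rose in DKO, by 1.06 ± 0.27, the other 11 were not called, and 1 of 12 is 8.33%, near the share of all genes called higher. In neither single deletion was a gene of the list called. The recombinase genes Rag1 and Rag2 and the terminal transferase gene Dntt have no row in the table.

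Markers of other cells were compared between the same groups. Of 20 markers of alpha beta T cells 16 have a row, and their summed RPKM was 465 to 655 in Cre only and 868 to 950 in DKO. The sums were 474 to 514 in Ikzf1 KO and 590 to 656 in Ikzf3 KO. Thy1 was the largest part, at 339 to 479 RPKM in Cre only and 416 to 558 in DKO, and was not called in DKO. Of the 12 tested, 5 rose in DKO (Cd3e, Cd3d, Cd28, Tcf7 and Ubash3a) and 1, Icos, fell, where 8.06% of all genes were called higher and 10.6% lower. Themis was at 0.041, 0.017, 0 and 0 RPKM in Cre only and at 0.15, 0.32 and 0.43 in DKO, without overlap. Cd4 was at 0.27, 0.52, 0.018 and 0 RPKM against 1.30, 1.27 and 0.26, with overlap, and Cd8a was at or below 0.76 RPKM in all 15 libraries, highest in the control S16. Cd8b1 and Cd5 have no row. Of 12 markers of gamma delta T cells 8 have a row, with sums of 11.7 to 21.0 in Cre only and 23.1 to 36.9 in DKO. Among them Cd163l1 went from 1.56, 0.92, 0.27 and 0.17 RPKM to 15.3, 7.49 and 4.53, and Sox13 and Blk have no row. Of the 4 tested, 1, Cd163l1, was called higher in DKO and none lower. Cd27, Il23r and Maf were not called, at log2 fold changes of 0.37, 0.26 and -0.15. The higher sums thus rest in part on Cd163l1. The 13 NK markers in the table summed to 9663 to 13483 in Cre only and 2111 to 4620 in DKO, most of it Gzmb, at 7955 to 11121 and 753 to 3432 RPKM. Of the 13, none was called higher and 4 fell (Prf1, Fcgr3, Cd7 and Gzmb), against 8.06% and 10.6% of all genes. Ncr1 was at 106 to 187 RPKM in Cre only and 184 to 235 in DKO, and Eomes at 50.4 to 58.6 and 67.8 to 79.8, neither of them called. Of 11 markers of innate lymphoid cells outside NK, 8 have a row. Their sums were 165 to 495 in Cre only, 481 to 593 in Ikzf1 KO, 167 to 199.9 in Ikzf3 KO and 523 to 729 in DKO. Within them Tmem176b was at 19.1 to 121, 228 to 265, 11.5 to 29.7 and 226 to 245 RPKM. Of the 7 tested, 4 rose in DKO (Il7r, Tmem176a, Tmem176b and Rora) and 1, Kit, fell, against 8.06% and 10.6% of all genes. In Ikzf1 KO 2 rose, Tmem176a and Tmem176b, and none fell, where 3.54% of all genes were called higher. None was called in Ikzf3 KO. The 3 markers of B and plasma cells in the table summed to 20.7 to 40.2 in Cre only, 29.1 to 48.5 in Ikzf1 KO, 28.3 to 106 in Ikzf3 KO and 143 to 195 in DKO, nearly all of it Ighm. The part of such cells in the segment results was not tested.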

How the data were processed

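The deposited table gives RPKM, as the authors computed it, for 11736 genes in 15 libraries, without counts. Per the submitters' processing notes, STAR, featureCounts, limma 3.34.9 and mm10 were used; settings are not given in the sources used here. Columns were mapped by genotype to the cultured groups, the only ones with matching numbers of samples. The labels call samples biological replicates. Lengths from GENCODE M21 and the smallest steps between values gave whole reads for 11291 genes (96.2%, within 0.02 read). RPM (reads per megareads) is RPKM times length in kilobases.

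Values of genes with at least 1 RPKM in at least 3 libraries (10032) were fitted as log2(RPKM + 0.5) using R 4.3.3 and limma 3.58.1, each group having 1 mean, with a mean-variance trend, robust moderation and 11 residual degrees of freedom. Contrasts were 2-sided with Benjamini-Hochberg adjustment over all genes, called below 0.05. The script was tested on simulated data. Sums and ratios were made in Python 3.11.15 with pandas 2.3.3.

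Named are all constant segments, the 3 highest segments per locus, up to 8 called segments without overlap per direction and comparison, and up to 5 genes per pathway list and comparison with Cre only. Other segments and genes were named after their values were seen, among them Trbj1-4, Trav16n, Trbv31, Trbd1 and the markers. Members and lists were chosen with earlier results of these data known. Alternatives were 2 pseudocounts, 2 filters, 2 rescalings, limma array weights, library subsets and fits of 2 groups.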

Additional observations from a re-analysis of the deposited data

Results flagged for a closer look

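In 5 of 93 groups of 4 libraries with a value, 1 library stood far from the others; chance gives about 1 in 20. The gap to the nearest library, as a share of the group's range, was 0.844 for Tcrg-V4 in Cre only, where S16 was at 1.46 RPKM and the others at 0.14 to 0.35. It was 0.83 for Trbc1 in Cre only, where S19 was lowest, at 263 against 303 to 311 RPKM. It was 1 in Ikzf3 KO for Trav13-4-dv7 (S3 at 0.41), Trav14-1 (S2 at 1.43) and Trgj1 (S1 at 5.61 RPKM), the other libraries having no read.

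For 17 named segments the effect of deleting both factors differed from the sum of the single effects (limma interaction contrast, adjusted p below 0.05), where 6.55% of all genes were called. The named segments were chosen in part for their calls, so this number describes the choice. In gamma the log2 departures were 4.31 for Tcrg-C1, 4.61 for Tcrg-C2, 3.60 for Tcrg-C4, 4.09 for Tcrg-V4, 5.29 for Trgj1 and 5.16 for Trgv2. In alpha and beta they were 3.52 for Trac, 1.33 for Trbc2, -1.47 for Trbj1-1 and 3.22 for Trbj2-6. For the beta variable segments they were 3.37 for Trbv12-2, 3.99 for Trbv13-2, 3.36 for Trbv17, 3.88 for Trbv29 and 4.56 for Trbv3, which passed the filter only through DKO. In delta they were 1.48 for Trdc and -2.34 for Trdv4. The fitted values of segments near 0 in the controls depend on the pseudocount.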

How the results depend on the processing

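In DKO against Cre only, 34 of the 38 calls held under every alternative in which the segment was tested; Trav13-4-dv7, Trbj1-5, Trbd2 and Trgj4 did not. Of the 34, 11 are the segments that passed the filter only through DKO. Only 14 are among the 30 segments that reach the lowest level of the table outside DKO. Leave-one-out counts were 30 to 39, the lower ones from dropping a DKO library, which leaves 46 segments tested. In Ikzf1 KO, leave-one-out gave 0 to 2 calls, and there were 3 without S3 and S4, 2 without S18 and S19, 9 with 2 groups in the fit (20.2% of all genes) and 13 with array weights (36.2%). These weights were estimated gene by gene, since the REML estimate did not converge. In Ikzf3 KO, leave-one-out gave 3 to 9 calls, with 3 for leaving out S17, S3 or S4; there were 2 without S3 and S4, 3 with 2 groups in the fit and 3 without S16 and S17. For the departure, leave-one-out gave 19 to 33 calls, and there were 21 with a pseudocount of 0.1 and 21 without S16 and S17. Summing RPKM in place of reads, which weights short segments, moved the log2 ratio to Cre only of TRB from -0.21 to -0.40 in Ikzf1 KO and from 0.94 to 0.40 in DKO, and that of TRD from -0.72 to -0.43 in Ikzf3 KO and from -0.16 to -1.32 in DKO. Over leave-one-out the TRD ratio in DKO ran from -0.82, without S7, to 0.10. The cause of these shifts beyond fewer samples was not tested. No paired analysis was possible because the column names carry no replicate numbers. Low reads limit the D and J segments and the control levels of variable segments.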

Other observations

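Immunoglobulin segments, the family built like the T cell receptor segments, have 7 rows in the table. Ighm, the mu constant segment, was at 20.3, 22.1, 39.9 and 32.9 RPKM in Cre only, 27.3 to 47.5 in Ikzf1 KO, 27.9, 29.3, 74.9 and 106 in Ikzf3 KO, and 195, 163 and 140 in DKO. It rose in DKO by a log2 fold change of 2.55 ± 0.41 (limma adjusted p = 0.000584), with no overlap. The other immunoglobulin segments tested, all variable, were not called in DKO. Their log2 fold changes against Cre only were -0.02 for Ighv1-23, -0.87 for Ighv1-58, -0.81 for Ighv1-82 and -0.71 for Ighv1-77. A rise was thus seen for Ighm and not for the family.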
